A study of Mus musculus with 4 samples.

Results

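The 66 genes described here had their highest RNA level in G1E cells carrying GATA-1 V205M, a mutant form of the red cell transcription factor GATA-1, among the 4 cell groups of an RNA-seq series. They were chosen by measured levels. A gene was kept if its level in GATA-1 V205M was at least 2-fold its level in each of the other 3 groups, and if the highest of its 4 levels was 50 scaled reads or more. A scaled read is a read count divided by the size factor of its library, as the authors deposited it, with no correction for gene length. Of the 2982 genes in any of the authors' 6 tables, 1157 had a level in all 4 groups, 1124 of these reached 50, and 71 passed the 3 ratios. Genes whose symbol starts with Slc, Hist or mt- and 6 named genes were left out by the same rule. This removed 5 genes and left 66 of the 2982. Their excess in GATA-1 V205M is therefore how they were picked, and it is given below as a description without a test. Another 1076 genes with a level in GATA-1 V205M lacked a level in at least 1 other group and could not be judged.

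G1E is a mouse erythroblast line derived from embryonic stem cells without a working Gata1 gene. The 4 groups were G1E cells with GATA-1 V205M, G1E cells with GATA-1 2RA, G1E cells that carry the wild-type factor (GATA-1 WT), and the G1E control, all given β-estradiol induction and each labelled as 1 sample. V205M weakens the contact of GATA-1 with its cofactor FOG-1, and what 2RA changes is not given in the labels. Total RNA was made into libraries with a TruSeq RNA kit and sequenced on an Illumina HiSeq. All 4 groups share 1 parent line, and the construct that carried GATA-1 is not described in the labels. With 1 sample per group no difference between groups has a replicate check.

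GATA-1 switches erythroid genes on and holds genes of other blood lineages down, and for many of its targets both tasks need FOG-1 at its N-terminal zinc finger. When a GATA-1 protein that cannot bind FOG-1 is put into cells without GATA-1, erythroid genes respond poorly, and genes of the mast cell lineage, which GATA-2 and GATA-1 also drive, can stay on.

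In these libraries Gata1 itself had 613 scaled reads in GATA-1 V205M, 1421 in GATA-1 2RA, 2652 in GATA-1 WT and 153 in the G1E control. Summed over the 7 of 8 erythroid marker genes with 4 levels, the level was 4197 scaled reads in GATA-1 V205M, 4127 in GATA-1 2RA, 62807 in GATA-1 WT and 3298 in the G1E control. The 7 of 12 mast cell markers with a level, 3 of them (Ms4a2, Hdc and Tpsab1) left out of the 66 by symbol, summed to 3754 in GATA-1 V205M, 3989 in GATA-1 2RA, 452 in GATA-1 WT and 6291 in the G1E control. Of the 7, Ms4a2, Hdc, Tpsab1 and Gata2 were each highest in GATA-1 V205M and Srgn in GATA-1 2RA. Kit and Cpa3 were highest in the G1E control, with 2429 and 2795 there. The other 5 mast cell markers (Fcer1a, Tpsb2, Cma1, Mcpt4 and Mitf) and all 15 neutrophil, macrophage and lymphocyte markers were in no table. In bulk RNA, more cells that express a gene and more RNA per cell cannot be told apart, and the part that such cells play in the levels below was not tested.

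Across the 66 genes the level in GATA-1 V205M ran between 50.2 and 17035 scaled reads with a median of 277. The medians of the same genes were 48.2 in GATA-1 2RA, 70.2 in GATA-1 WT and 48.8 in the G1E control. Set against the next highest group of each gene, GATA-1 V205M was at least 3-fold higher for 28 genes, at least 5-fold for 15 and at least 10-fold for 10. The 10 were Ddc, 1700042O10Rik, Cmah, Gdf9, Rbfox2, Ehf, Jub, Grhl2, Ednra and Rab11fip5. The next highest group was GATA-1 2RA for 19 genes, GATA-1 WT for 23 and the G1E control for 24, so no single group stood second throughout. For 13 genes at least 1 of the other groups had 3 reads or fewer, and ratios to such a group are given with a 95% counting interval, which covers counting error only.

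**Figure D1:**
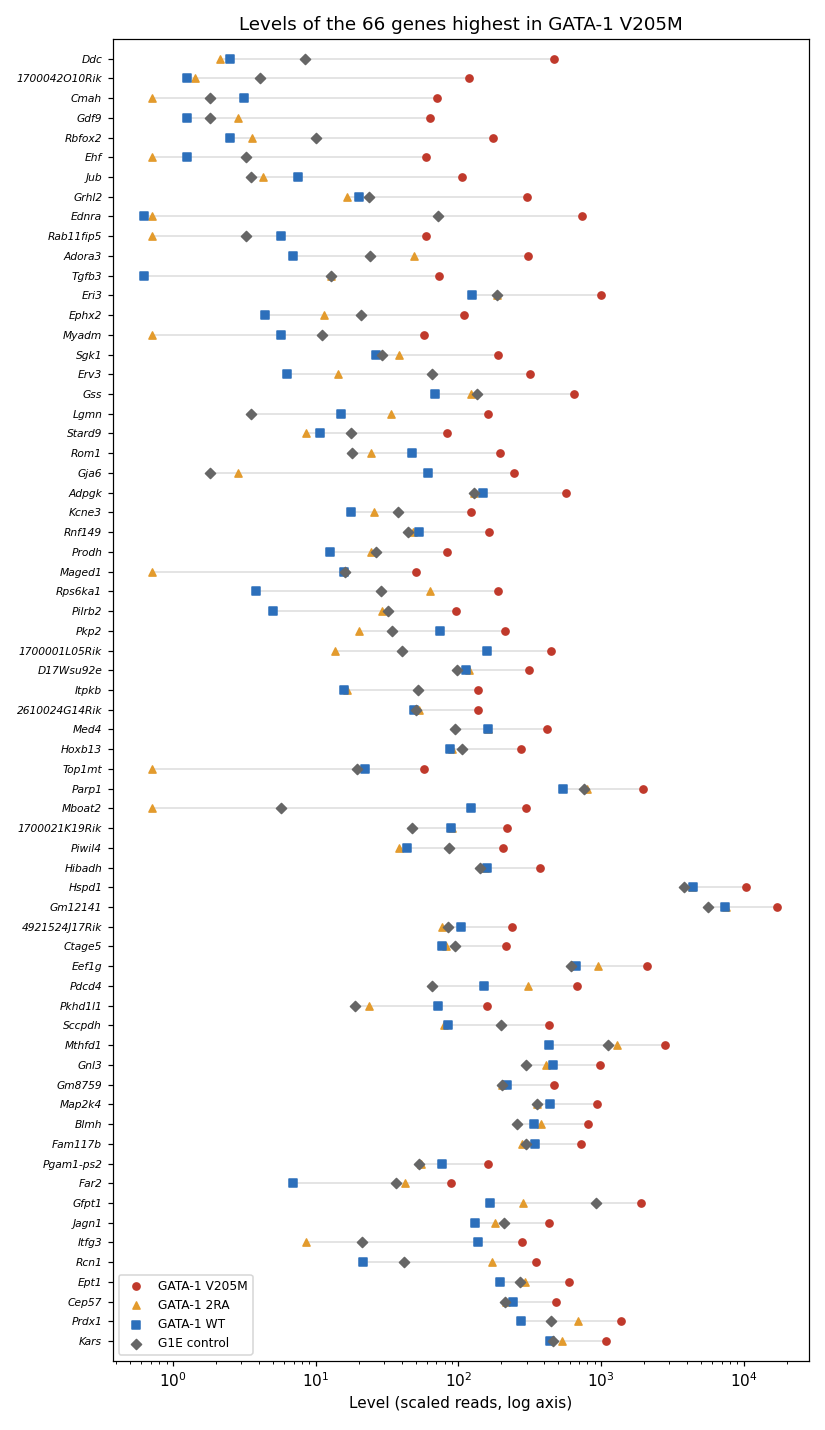
Level of each of the 66 genes in scaled reads (log axis) in GATA-1 V205M, GATA-1 2RA, GATA-1 WT and the G1E control, 1 point per group. Genes are ordered by the ratio of GATA-1 V205M to the next highest group after 1 scaled read was added to each level. GATA-1 V205M is the rightmost point in every row because the genes were chosen for it; the other 3 points lie close together for some genes, such as Adpgk, and far apart for others, such as Mboat2.

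The authors listed a gene in a pair of groups when its adjusted p was below 0.01 and its change above 2-fold. The number of genes tested, 12931, was inferred from the authors' p-values and adjusted p-values. In the 3 pairs with GATA-1 V205M the choice of genes fixes the direction, and nothing is read from the counts. There 64 of the 66 were listed higher in GATA-1 V205M than in GATA-1 2RA (2.62% of the 12931 genes the authors tested), 64 higher than in GATA-1 WT (3.7%) and 65 higher than in the control (4.83%). None was listed lower in these pairs, where the shares of all genes tested were 3.6%, 5.65% and 3.32%. The pairs not listed were Maged1 against WT and the control, Top1mt against WT, and Rps6ka1 and Far2 against 2RA. The 4 genes just inside the 2-fold limit were Kars at 2.01, Prdx1 at 2.01, Cep57 at 2.02 and Ept1 at 2.04 times the next highest group. The 4 just outside it were Gm7204 at 1.94, Dock9 at 1.92, Klhdc8b at 1.92 and Prep at 1.91. Gm7204 is a Prdx1 copy, 97.5% identical over 597 bases, so the limit ran between 2 genes that may share reads.

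The single count columns behind the levels are described next, and since the choice of genes used their means, the order of the columns between groups is largely fixed by it. The level of GATA-1 V205M and that of the G1E control are each the mean of 2 count columns, while GATA-1 2RA and GATA-1 WT each have 1. No source used here says what the 2 columns of a group are, whether separate cultures or repeated runs. The 2 columns of GATA-1 V205M were within 1.5-fold of each other for all 66 genes, from a log2 difference of -0.37 for Rps6ka1 to 0.50 for Ehf. For 66 of 66 genes the lower column of GATA-1 V205M stood above every other column, and for 57 it stood at least 2-fold above. The G1E control was less even, with 47 of 66 genes within 1.5-fold. Its extremes were a log2 difference of -2.59 for Stard9 and 1.33 for Mboat2, both on few reads.

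**Figure D2:**
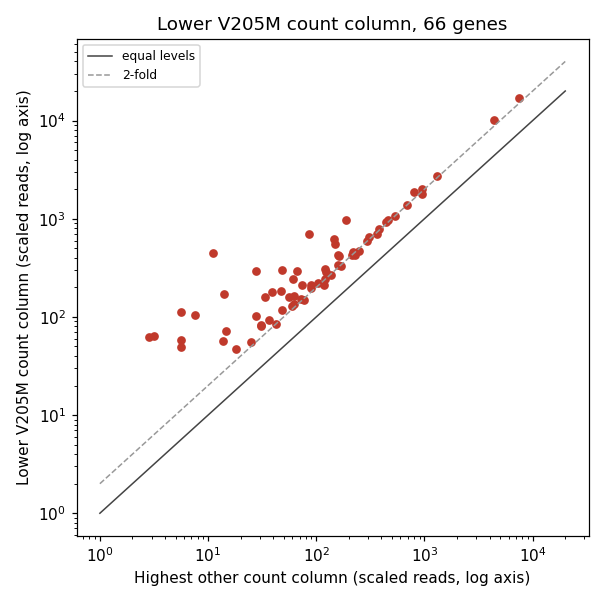
Lower of the 2 GATA-1 V205M count columns against the highest count column of any other group for each of the 66 genes, both in scaled reads on log axes. All 66 points lie above the line of equal levels and 57 lie on or above the dashed 2-fold line; the choice of genes uses the mean of the same columns.

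Among receptors and ligands, Ednra had the widest gap to the cells with another form of GATA-1. Ednra encodes the endothelin type A receptor, a G protein-coupled receptor best known on vascular smooth muscle, and lies on mouse chromosome 8 at 77663029 to 77724452 on the minus strand of GRCm38. It had 698 and 761 scaled reads in the 2 columns of GATA-1 V205M, 0.714 in GATA-1 2RA, 0.630 in GATA-1 WT, and 85.7 and 58.8 in the 2 columns of the G1E control. The 2RA and WT values are 1 read each, so GATA-1 V205M stood 1021-fold above GATA-1 2RA (95% counting interval 182 to 40227) and 1158-fold above GATA-1 WT (207 to 45631). Over the control, where the gene was clearly counted, the ratio was 10.1. No other gene of an 11-gene endothelin list (ligands, converting enzymes and receptors) was in any table.

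Adora3, the adenosine A3 receptor that enhances degranulation of mouse mast cells, had 308 scaled reads in GATA-1 V205M, 48.6 in GATA-1 2RA, 6.93 in GATA-1 WT and 24.0 in the G1E control. Its second group was 2RA, unlike that of Ednra. Pilrb2, a member of the paired immunoglobulin-like receptors of myeloid cells, had 96.4 in GATA-1 V205M, 29.3 in GATA-1 2RA, 5.04 in GATA-1 WT and 31.9 in the G1E control. Of 60 genes on a G protein signalling list, the authors listed 1 (Adora3) higher and 8 lower in GATA-1 V205M than in GATA-1 2RA, 5 higher and 7 lower than in GATA-1 WT, and 2 higher and 9 lower than in the control.

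A pair of TGF-beta family ligands was in the set. Tgfb3, which encodes TGF-beta 3, had 74.8 and 71.1 scaled reads in the columns of GATA-1 V205M, 12.9 in GATA-1 2RA, 0.630 (1 read) in GATA-1 WT and 12.9 in the G1E control. Its 2RA and control levels were nearly equal, and WT stood below both. Gdf9, known as a growth factor of the oocyte, had 62.9 in GATA-1 V205M, 2.86 in GATA-1 2RA, 1.26 in GATA-1 WT and 1.83 in the G1E control, which is near the level of single reads outside GATA-1 V205M. Its ratio was 49.9 over GATA-1 WT (95% counting interval 13.6 to 417) and 34.4 over the control (13 to 400.05). Of the 34 genes on the list of TGF-beta family ligands, receptors and their signalling genes, the authors listed 2 higher and 3 lower (Bmpr2, Tgfb1 and Tgfbr1) in GATA-1 V205M against GATA-1 2RA. Against GATA-1 WT the list had 4 higher (Gdf9, Id1, Smad3 and Tgfb3) and 0 lower, and against the G1E control 2 higher and 1 lower (Tgfb1).

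Signalling enzymes came next. Sgk1, a serum- and glucocorticoid-regulated kinase, had 189 scaled reads in GATA-1 V205M, 38.6 in GATA-1 2RA, 26.5 in GATA-1 WT and 29.3 in the G1E control. Rps6ka1, a kinase acting downstream of ERK, had 188 in GATA-1 V205M, 62.9 in GATA-1 2RA, 3.78 in GATA-1 WT and 28.7 in the G1E control. Outside GATA-1 V205M the highest level of Sgk1 was 1.46 times the lowest, while that of Rps6ka1 was 16.6 times the lowest, which was WT. Itpkb, which phosphorylates inositol trisphosphate, had 136 in GATA-1 V205M, 16.4 in GATA-1 2RA, 15.7 in GATA-1 WT and 51.8 in the G1E control. Map2k4, which activates JNK and p38, had 936 in GATA-1 V205M, 356 in GATA-1 2RA, 441 in GATA-1 WT and 353 in the G1E control. Kcne3, an accessory subunit of voltage-gated potassium channels, had 122 in GATA-1 V205M, 25.7 in GATA-1 2RA, 17.6 in GATA-1 WT and 38.0 in the G1E control. On a 49-gene list of channels and pumps that includes it, 2 genes were listed higher and 8 lower in GATA-1 V205M than in GATA-1 2RA, 1 higher and 7 lower than in GATA-1 WT, and 2 higher and 5 lower than in the control.

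Several genes for cell junctions and membranes were in the set. Gja6, a connexin gene on the X chromosome at 160902116 to 160907052 (minus strand, GRCm38), had 242 and 244 scaled reads in GATA-1 V205M, 2.86 in GATA-1 2RA, 61.1 in GATA-1 WT, and 0.857 and 2.80 in the G1E control. GATA-1 WT was thus the second group, 33.4-fold above the control (95% counting interval 12.6 to 390.1, on 2 control reads), and GATA-1 V205M was 3.98-fold above GATA-1 WT. None of the other 17 connexin and pannexin genes on the list was in any table. Pkp2, plakophilin 2 of the desmosome, had 212 in GATA-1 V205M, 20 in GATA-1 2RA, 74.3 in GATA-1 WT and 34.3 in the G1E control. Jub (Ajuba in RefSeq), a LIM protein of adherens junctions, had 106 in GATA-1 V205M, 4.29 in GATA-1 2RA, 7.56 in GATA-1 WT and 3.54 in the G1E control. Both junction genes ranked WT second.

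In the trafficking group, Rab11fip5, an effector of the recycling GTPase Rab11, had 59.1 scaled reads in GATA-1 V205M, 0.714 (1 read) in GATA-1 2RA, 5.67 in GATA-1 WT and 3.23 in the G1E control. Myadm, a membrane protein of myeloid and other cells, had 57.3 in GATA-1 V205M, 0.714 (1 read) in GATA-1 2RA, 5.67 in GATA-1 WT and 11.1 in the G1E control. Rom1, a tetraspanin of photoreceptor outer segments, had 194 in GATA-1 V205M, 24.3 in GATA-1 2RA, 47.2 in GATA-1 WT and 17.9 in the G1E control. For the first and the second of these, every group but GATA-1 V205M had few reads, while Rom1 was counted in all. Rcn1, a calcium-binding protein of the endoplasmic reticulum, had 349.99 in GATA-1 V205M, 171 in GATA-1 2RA, 21.4 in GATA-1 WT and 41.2 in the G1E control, so both mutants stood above WT. Jagn1 and Ctage5 (Mia2), which act in the early secretory pathway, were 2.05-fold and 2.26-fold higher in GATA-1 V205M than in the control.

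The transcription and RNA regulators included Grhl2 and Ehf, which are known as regulators of epithelial genes. Grhl2 had 297 and 304 scaled reads in GATA-1 V205M, 16.4 in GATA-1 2RA, 20.2 in GATA-1 WT, and 18.8 and 28.0 in the G1E control. Ehf had 69.6 and 49.1 in GATA-1 V205M, 0.714 in GATA-1 2RA, 1.26 in GATA-1 WT and 3.23 in the G1E control, each of the last 3 on 3 reads or fewer. Outside GATA-1 V205M the Grhl2 levels differed little, and Ehf was close to its detection limit. None of 20 epithelial markers chosen after these genes were seen (keratins, cadherin 1 and the like) was in any table, which says only that none was listed as changed. Hoxb13, a homeobox gene of posterior tissues, had 274 in GATA-1 V205M, 90.0 in GATA-1 2RA, 87.5 in GATA-1 WT and 106 in the G1E control.

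Rbfox2, a splicing factor, had 175 scaled reads in GATA-1 V205M, 3.57 in GATA-1 2RA, 2.52 in GATA-1 WT and 9.99 in the G1E control. Piwil4, a PIWI protein of the germline, had 212 and 198 in the columns of GATA-1 V205M, 38.6 in GATA-1 2RA, 43.5 in GATA-1 WT and 85.9 in the G1E control. Eri3, an exoribonuclease gene, had 992 in GATA-1 V205M, 186 in GATA-1 2RA, 124 in GATA-1 WT and 187 in the G1E control. For Rbfox2 and Piwil4 the control was second, and for Eri3 the control and 2RA were level. Parp1, the DNA damage sensor that makes poly(ADP-ribose), had 1957 in GATA-1 V205M, 799 in GATA-1 2RA, 538 in GATA-1 WT and 752 in the G1E control. The mitochondrial topoisomerase gene Top1mt had 57.2 in GATA-1 V205M, 0.714 (1 read) in GATA-1 2RA, 22 in GATA-1 WT and 19.4 in the G1E control. Med4, a subunit of Mediator, was 2.58-fold higher in GATA-1 V205M than in GATA-1 WT. None of these 9 regulators was on the 104-gene list of transcription factors used for the series, of which the authors listed 1 higher and 6 lower in GATA-1 V205M than in GATA-1 2RA, 9 higher and 1 lower than in GATA-1 WT, and 6 higher and 6 lower than in the control.

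Metabolic enzymes made up the largest role group, with 13 genes. Ddc encodes aromatic L-amino acid decarboxylase, which makes serotonin and dopamine, and lies on chromosome 11 at 11814101 to 11898144 (minus strand, GRCm38). It had 484 and 446 scaled reads in GATA-1 V205M, 2.14 (3 reads) in GATA-1 2RA, 2.52 (4 reads) in GATA-1 WT, and 11.1 and 5.60 in the G1E control. Its ratio was 217 over GATA-1 2RA (95% counting interval 74.2 to 1057), 185 over GATA-1 WT (72.1 to 681) and 55.6 over the control, the widest gap to a next highest group in the set. On the 15-gene list of monoamine synthesis, storage and breakdown, the genes listed higher in GATA-1 V205M were Ddc, Hdc and Maoa against GATA-1 2RA, and Ddc and Hdc against both GATA-1 WT and the G1E control. None was listed lower. Hdc, the histamine-making decarboxylase and a mast cell gene, was removed from the set by symbol and had 121 scaled reads in GATA-1 V205M, 33.6 in GATA-1 2RA, 1.89 in GATA-1 WT and 29.5 in the G1E control.

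Mboat2, an acyltransferase that remodels phospholipids, lies on chromosome 12 at 24831435 to 24964400 (plus strand, GRCm38). It had 309 and 288 scaled reads in GATA-1 V205M, 0.714 (1 read) in GATA-1 2RA, 123 in GATA-1 WT, and 8.57 and 2.80 in the G1E control. The 2 mutants were thus at opposite ends, with GATA-1 V205M 418-fold above GATA-1 2RA (95% counting interval 75.0 to 16597) and the other groups between them. Among 24 phospholipid acyltransferase and phospholipase genes, the authors listed 1 higher and 3 lower in GATA-1 V205M than in GATA-1 2RA, 3 higher and 1 lower than in GATA-1 WT, and 3 higher and 2 lower than in the control. Ept1 (Selenoi), which makes phosphatidylethanolamine, had 597 in GATA-1 V205M, 293 in GATA-1 2RA, 194 in GATA-1 WT and 269 in the G1E control. Far2, a fatty acyl-CoA reductase, had 88.1 in GATA-1 V205M, 42.2 in GATA-1 2RA, 6.93 in GATA-1 WT and 36.3 in the G1E control. Ephx2, the soluble epoxide hydrolase, had 109.6 in GATA-1 V205M, 11.4 in GATA-1 2RA, 4.41 in GATA-1 WT and 20.8 in the G1E control.

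Cmah, the hydroxylase that makes N-glycolylneuraminic acid from the commoner sialic acid, had 77.4 and 64.1 scaled reads in GATA-1 V205M, 0.714 (1 read) in GATA-1 2RA, 3.15 (5 reads) in GATA-1 WT and 1.83 (2 reads) in the G1E control. GATA-1 V205M stood 38.7-fold above the control (95% counting interval 14.8 to 452) and 22.5-fold above GATA-1 WT (9.49 to 70.7). Of 32 sialic acid and glycan enzymes, 1 (Cmah) was listed higher and 4 lower in GATA-1 V205M than in GATA-1 2RA, 1 (Cmah) higher and 4 lower than in GATA-1 WT, and 3 higher and 5 lower than in the control. Gfpt1, the first and rate-limiting enzyme of hexosamine synthesis, had 1896 in GATA-1 V205M, 282 in GATA-1 2RA, 166 in GATA-1 WT and 921 in the G1E control, so the control lay well above WT and 2RA. Gss, glutathione synthetase, had 642 in GATA-1 V205M, 123 in GATA-1 2RA, 68.7 in GATA-1 WT and 134 in the G1E control.

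Prdx1, a peroxiredoxin that removes hydrogen peroxide, had 1382 scaled reads in GATA-1 V205M, 687 in GATA-1 2RA, 273 in GATA-1 WT and 447 in the G1E control. Mthfd1, a folate enzyme, had 2801 in GATA-1 V205M, 1297 in GATA-1 2RA, 429 in GATA-1 WT and 1114 in the G1E control. Both had the same order, with 2RA second and WT lowest. The remaining enzymes were Adpgk, an ADP-dependent glucokinase, Prodh, which starts proline breakdown, and Hibadh of valine breakdown. Prodh had 83.0 in GATA-1 V205M, 24.3 in GATA-1 2RA, 12.6 in GATA-1 WT and 26.6 in the G1E control. Adpgk was even outside GATA-1 V205M, with 562 in GATA-1 V205M, 129 in GATA-1 2RA, 149 in GATA-1 WT and 128 in the G1E control. None of the 66 was on the 36-gene glycolysis list. Of that list the authors listed 8 genes higher and 2 lower in GATA-1 V205M than in GATA-1 2RA. Against GATA-1 WT 0 were listed higher and 8 lower, and against the control 9 higher and 2 lower.

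The promoters of the members were read for the letters that GATA factors recognise. The table of RefSeq promoters (GRCm38.p6) had an entry for 50 of the 66 genes, 74 promoters in all. GATAA, the core that GATA factors read, searched on both strands, was in 11 of the 74 promoters of 300 bases (14.9%), against 25.4% of all 32851 promoters. In the 250 bases before the start it was in 10 of 74 (13.5%), against 22.6%. The longer forms AGATAA and TGATAA, which are contained in the GATAA count, were in 9.46% and 4.05% of the 74, against 11.2% and 9.05% of all. The composite of CTG and GATAA separated by 7 or 8 bases was in 1.35% against 1.52%, and the E-box letters CANNTG were in 59.5% against 72.3%. A match is a description of letters and not a binding site, and these windows hold no distal element. The 7 genes with GATAA in the 250 bases before a start were Cmah, Eri3, Erv3, Itfg3, Pilrb2, Rps6ka1 and Sgk1. Shown here, on the gene's strand, are the 250 bases before the start of Ednra, which has no match and the widest ratio to 2RA and WT, both promoters of Cmah, and the Sgk1 promoter with a match 27 bases before its start. They lie at chr8:77724453-77724702 (Ednra, minus strand), chr13:24327154-24327403 and chr13:24414872-24415121 (Cmah, plus strand) and chr10:21978422-21978671 (Sgk1, plus strand). Capitals mark GATAA or its reverse complement TTATC.
Ednra: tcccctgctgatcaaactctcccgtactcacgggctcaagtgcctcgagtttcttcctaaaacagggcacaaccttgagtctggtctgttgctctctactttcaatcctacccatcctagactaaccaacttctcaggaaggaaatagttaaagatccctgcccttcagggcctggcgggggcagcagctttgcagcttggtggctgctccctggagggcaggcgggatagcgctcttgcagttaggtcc
Cmah, first start: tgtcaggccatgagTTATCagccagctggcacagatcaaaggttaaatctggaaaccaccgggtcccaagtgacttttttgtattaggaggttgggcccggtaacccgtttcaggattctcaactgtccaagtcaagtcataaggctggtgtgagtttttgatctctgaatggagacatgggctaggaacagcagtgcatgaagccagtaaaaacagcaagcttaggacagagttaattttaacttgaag
Cmah, second start: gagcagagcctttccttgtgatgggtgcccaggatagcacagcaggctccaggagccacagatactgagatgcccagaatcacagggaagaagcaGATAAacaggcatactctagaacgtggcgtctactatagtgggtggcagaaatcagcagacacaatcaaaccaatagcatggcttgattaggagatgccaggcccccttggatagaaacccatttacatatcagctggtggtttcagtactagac
Sgk1, second start: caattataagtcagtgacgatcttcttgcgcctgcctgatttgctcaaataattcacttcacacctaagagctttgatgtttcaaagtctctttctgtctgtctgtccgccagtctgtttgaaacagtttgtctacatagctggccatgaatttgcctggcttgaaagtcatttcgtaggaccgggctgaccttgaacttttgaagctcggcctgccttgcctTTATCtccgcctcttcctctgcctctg
In the first Cmah promoter the match lies 236 bases before the start, on the opposite strand, and in the second 155 bases before it.

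Genes for making, folding and breaking down protein had small gaps and even levels elsewhere. For 7 of these 9 genes the other 3 groups lay within 2-fold of each other. Hspd1, the mitochondrial chaperonin, had 10352 and 10241 scaled reads in GATA-1 V205M, 4304 in GATA-1 2RA, 4431 in GATA-1 WT and 3778 in the G1E control. Eef1g, a subunit of the translation elongation factor, had 2083 in GATA-1 V205M, 943 in GATA-1 2RA, 670.1 in GATA-1 WT and 609.5 in the G1E control. Gnl3, nucleostemin, a nucleolar GTPase, had 988 in GATA-1 V205M, 413 in GATA-1 2RA, 459 in GATA-1 WT and 298 in the G1E control. Hspd1 and Gnl3 had all 3 other groups close together, and so had Kars, the lysyl-tRNA synthetase gene, with 1075 in GATA-1 V205M, 535 in GATA-1 2RA, 435 in GATA-1 WT and 463 in the G1E control. Kars, the bleomycin hydrolase gene Blmh, 2610024G14Rik (Noa1) and 1700021K19Rik (Rubcn) were also 2.01 to 2.61 times the next highest group.

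The exceptions in that role were Pdcd4 and Lgmn. Pdcd4, which blocks the translation helicase eIF4A, had 655 and 692 scaled reads in GATA-1 V205M, 307 in GATA-1 2RA, 151 in GATA-1 WT, and 66.8 and 64.4 in the G1E control, a stepwise order in which every group with GATA-1 was above the control. Lgmn, the lysosomal protease legumain, had 161 and 162 in GATA-1 V205M, 33.6 in GATA-1 2RA, 15.1 in GATA-1 WT, and 4.28 and 2.80 in the G1E control, the same order, although of the 3 steps among the other groups only that between 2RA and the control was listed. Of the 40 genes on the lysosomal list, the authors listed 3 higher and 9 lower in GATA-1 V205M against GATA-1 2RA, 5 higher and 5 lower against GATA-1 WT, and 4 higher and 3 lower against the control, and Lgmn was listed higher in all 3.

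**Figure D3:**
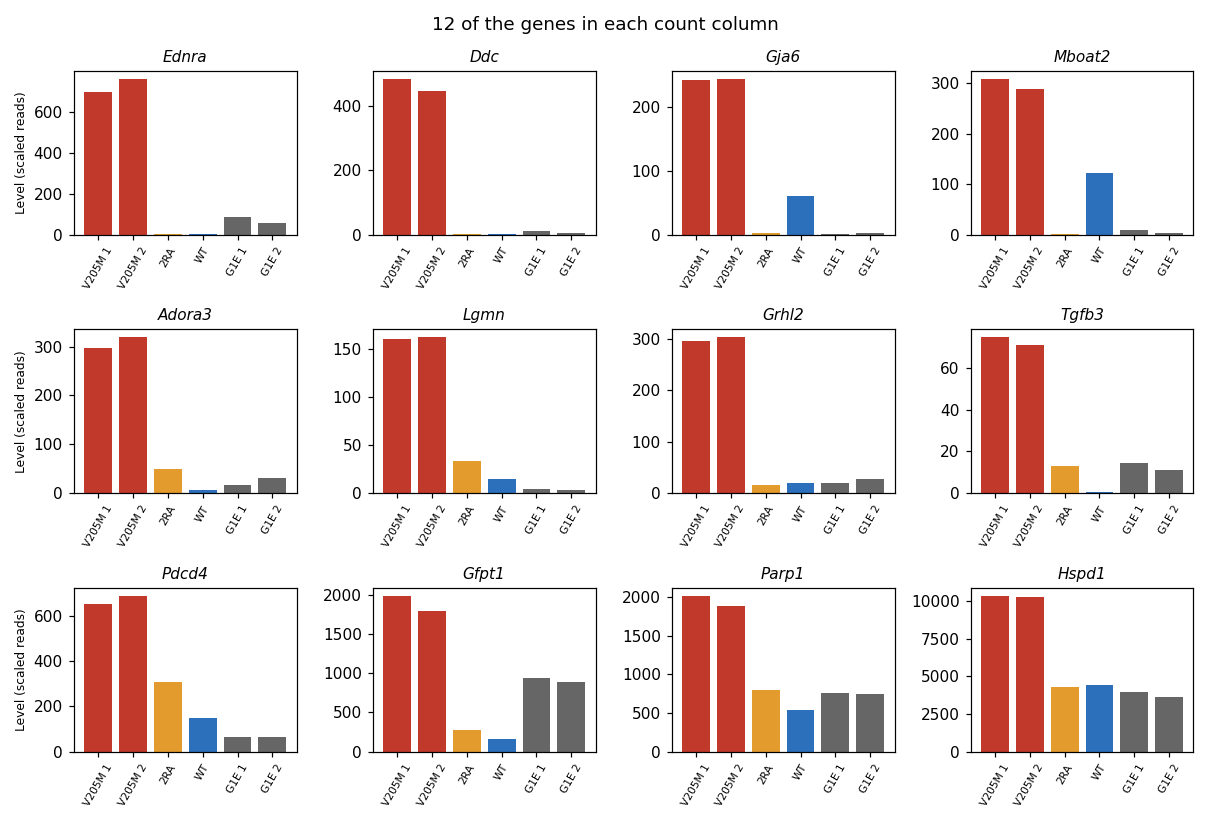
Level in scaled reads of 12 of the genes in each count column, 2 for GATA-1 V205M, 1 each for GATA-1 2RA and GATA-1 WT, and 2 for the G1E control; bars start at 0 and each panel has its own axis. The 2 GATA-1 V205M bars are the highest in every panel, with the second group WT for Gja6 and Mboat2, 2RA for Adora3, Lgmn and Pdcd4, and the control for Ednra and Gfpt1.

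The set holds 61 protein-coding genes, 2 long non-coding RNA genes and 3 pseudogenes. Gm12141 (Hspd1-ps3 in RefSeq) is 99.0% identical to the Hspd1 transcript over 1722 bases and had 17035 scaled reads in GATA-1 V205M, 7438 in GATA-1 2RA, 7414 in GATA-1 WT and 5605 in the G1E control. No source used here says how the authors' counting divided reads between the pair, so the pseudogene is not a second, separate observation beside Hspd1. Pgam1-ps2 and Gm8759 (Rpl31-ps8) are 100% identical to Pgam1 over 765 bases and to Rpl31 over 378 bases and are uncertain in the same way. Unlike Hspd1, Pgam1 did not meet the ratios. It had 126 scaled reads in GATA-1 V205M, 40.0 in GATA-1 2RA, 93.2 in GATA-1 WT and 39.7 in the G1E control. The long non-coding RNA gene 1700042O10Rik lies inside Ddc on the opposite strand and had 119 scaled reads in GATA-1 V205M, 1.43 in GATA-1 2RA, 1.26 in GATA-1 WT and 4.08 in the G1E control. No source used here says whether reads were assigned by strand, and without strand these reads cannot be told from those of Ddc. In all, 22 of the 66 genes overlap a gene on the other strand. The other long non-coding RNA gene, 1700001L05Rik, had 446 in GATA-1 V205M, 13.6 in GATA-1 2RA, 159 in GATA-1 WT and 40.2 in the G1E control.

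Beyond these roles, Erv3, annotated as an endogenous retroviral sequence, had 317 scaled reads in GATA-1 V205M, 14.3 in GATA-1 2RA, 6.30 in GATA-1 WT and 65.2 in the G1E control. Stard9, a mitotic kinesin, had 83.6 in GATA-1 V205M, 8.57 in GATA-1 2RA, 10.7 in GATA-1 WT and 17.5 in the G1E control. Its control level rests on 2 columns of 4.28 and 30.8, so its place against the control is loose. Maged1, a MAGE family adaptor protein, had 50.2 in GATA-1 V205M, 0.714 (1 read) in GATA-1 2RA, 15.7 in GATA-1 WT and 16.0 in the G1E control, the lowest GATA-1 V205M level of the set. Itfg3 (Fam234a) had 280.5 in GATA-1 V205M, 8.57 in GATA-1 2RA, 137 in GATA-1 WT and 21.0 in the G1E control. Pkhd1l1, a large fibrocystin-like receptor, had 157 in GATA-1 V205M, 23.6 in GATA-1 2RA, 71.8 in GATA-1 WT and 18.8 in the G1E control. Both had WT second. Sccpdh, a predicted dehydrogenase, had 433 in GATA-1 V205M, 79.3 in GATA-1 2RA, 83.8 in GATA-1 WT and 199 in the G1E control. Cep57, a centrosomal protein, had 484 in GATA-1 V205M, 216 in GATA-1 2RA, 239.96 in GATA-1 WT and 210.4 in the G1E control. The last 6 (these 2, Rnf149, D17Wsu92e, 4921524J17Rik and Fam117b) were 2.02 to 3.11 times the next highest group.

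Members lay on the X chromosome and on every autosome but 18. In 7 pairs of members, 11 genes in all, the partners lay within 1000000 bases of each other. Besides Ddc and 1700042O10Rik, the closest were Rom1 and Eef1g, 37685 bases apart on chromosome 19, and Itpkb and Parp1, 144089 bases apart on chromosome 1.

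The ratios that chose the genes did not compare the 3 pairs without GATA-1 V205M, although those pairs share libraries with the ones compared. A level could, however, be taken from any pair that listed the gene. For Maged1, Top1mt, Rps6ka1 and Far2 at least 1 level came only from a pair without GATA-1 V205M. Their listing in such a pair was therefore a condition of entry. Of the 66 members, 42 were listed in none of the 3 pairs without GATA-1 V205M and 24 in at least 1. The matching share over all genes was not computed, so nothing is read from these counts. Shares for each single pair are given below. A member could enter the set through its GATA-1 V205M level alone, whereas the 1124 genes with 4 levels and 50 scaled reads include all that entered through differences between the other groups, so shares of the 1124 are given as a setting and not as a test. The other 3 groups lay within 2-fold of each other for 28 of the 66 (42.4%) and for 60 of the 1124 (5.34%). Of these 60 genes GATA-1 V205M was above the other groups in 29, the 28 members among them, and below in 31.

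GATA-1 WT against the G1E control asks how these genes differ where the wild-type factor is present. The authors listed 7 of the 66 higher in GATA-1 WT (10.6%, against 8.17% of the 12931 genes tested and 49.5% of the 1124) and 10 lower (15.2%, against 4.86% and 26.5%). The median log2 change of the 66 was -0.12 (0.03 for the members that reached 100 scaled reads), with 1.0 over the 1124 genes. The higher genes were Gja6, Mboat2, Itfg3, 1700001L05Rik, Pkhd1l1, Rom1 and Pdcd4, with WT over control ratios of 33.4, 21.6, 6.49, 3.96, 3.82, 2.63 and 2.30. The lower genes were Ednra, Tgfb3, Erv3, Rps6ka1, Pilrb2, Gfpt1, Far2, Itpkb, Mthfd1 and Sccpdh. Among them Ednra stood at 0.00872 times the control (95% counting interval 0.000199 to 0.0451), Tgfb3 at 0.0489 times (0.00111 to 0.284), Erv3 at 0.0967 times and Rps6ka1 at 0.132 times. The listed members thus ran both ways, with the largest changes down for the endothelin receptor and up for the connexin.

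GATA-1 2RA against the G1E control gave 3 of 66 higher (4.55%, against 4.86% of the genes tested and 38.2% of the 1124) and 8 lower (12.1%, against 2.61% and 18.5%). The share listed higher was thus near that of all genes tested. The median log2 change was close to 0 for the 66, with a sign that changed with the settings, and 0.44 for the 1124. Lgmn, Pdcd4 and Rcn1 were higher, at 9.48, 4.68 and 4.14 times the control. Ednra, Top1mt, Maged1, Erv3, Gfpt1, Itpkb, 1700001L05Rik and Sccpdh were lower. Ednra stood at 0.00989 times the control (95% counting interval 0.000226 to 0.0511), Top1mt at 0.0367 times (0.00106 to 0.266) and Maged1 at 0.0447 times (0.00102 to 0.255). Myadm, at 0.0647 times (0.00138 to 0.361), was among the 4 largest decreases of the set but was not listed, and neither was the change of Adora3, at 2.03 times, or of Rps6ka1, at 2.19 times.

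GATA-1 2RA against GATA-1 WT sets the other mutant beside the wild-type factor. Of the 66, 9 were listed higher in GATA-1 2RA (13.6%, against 3.33% of the genes tested and 26.4% of the 1124) and 8 lower (12.1%, against 4.04% and 31.7%). The median log2 change was 0.03 for the 66 and -0.14 for the 1124. The higher genes were Rps6ka1, Tgfb3, Rcn1, Adora3, Far2, Pilrb2, Mthfd1, Prdx1 and Pdcd4. Rps6ka1 was 16.6 times its WT level, Rcn1 7.97 times, Adora3 7.01 times and Tgfb3 20.4 times (95% counting interval 3.22 to 851, on 1 WT read). The lower genes were Mboat2, Gja6, Itfg3, Top1mt, 1700001L05Rik, Maged1, Pkhd1l1 and Pkp2. Mboat2 stood at 0.00582 times its WT level (95% counting interval 0.000147 to 0.0328), Gja6 at 0.0468 times, Itfg3 at 0.0627 times and Pkp2 at 0.269 times. These changes are again in both directions, while all of the same genes were highest in GATA-1 V205M by choice.

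**Figure D4:**
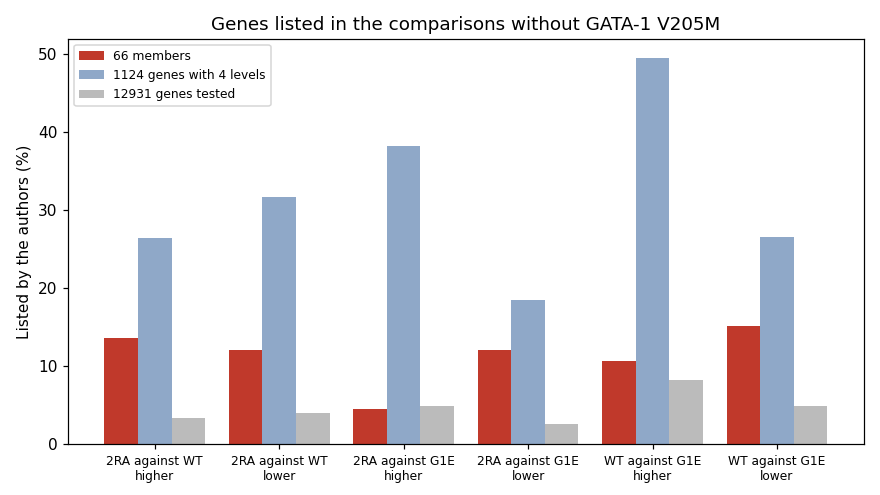
Percentage of genes the authors listed as higher or lower in each pair of groups without GATA-1 V205M, for the 66 genes, for the 1124 genes with 4 levels and 50 scaled reads, and for all 12931 genes tested. The 66 lie between the other 2 bars in 5 of the 6 cases and at 4.55%, against 4.86% of all tested, for genes higher in GATA-1 2RA than in the control.

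In all, 12 members were on at least 1 of 17 gene lists holding 664 genes. They were Ednra, Ddc, Gja6, Mboat2, Cmah, Lgmn, Gdf9, Tgfb3, Jub, Pkp2, Adora3 and Kcne3. Jub and Pkp2 are on a 56-gene list of integrins and adhesion proteins and were listed higher in GATA-1 V205M in all 3 pairs. Over that whole list, these genes included, 3 were listed higher and 5 lower against GATA-1 2RA, 2 higher and 4 lower against GATA-1 WT, and 5 higher and 3 lower against the control. No member came from the lists of cytokines, chemokines, cytokine signal inhibitors, cytoskeleton genes, eicosanoid synthesis, transcription factors or glycolysis.

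The 5 genes that met the ratios but were left out by symbol also had their highest level in GATA-1 V205M, by the same ratios. Il1rl1, the interleukin-33 receptor of mast cells, had 882 scaled reads in GATA-1 V205M, 42.2 in GATA-1 2RA, 11.3 in GATA-1 WT and 163 in the G1E control. Ms4a2, a chain of the mast cell IgE receptor, had 383 in GATA-1 V205M, 2.14 in GATA-1 2RA, 0.630 in GATA-1 WT and 139.97 in the G1E control. Tpsab1, a mast cell tryptase, had 474 in GATA-1 V205M, 139 in GATA-1 2RA, 0.630 in GATA-1 WT and 55.1 in the G1E control. These 3 mast cell genes and Hdc, given above, met the same ratios as the members. The mast cell markers Kit, Cpa3, Srgn and Gata2 did not. Gata2 was still highest in GATA-1 V205M, but less than 2-fold above the control. Its level was 1316 scaled reads in GATA-1 V205M, 514 in GATA-1 2RA, 54.8 in GATA-1 WT and 773 in the G1E control. Kit, the receptor of stem cell factor, had 1440.2 scaled reads in GATA-1 V205M, 2218 in GATA-1 2RA, 179 in GATA-1 WT and 2429 in the G1E control. Cpa3, a mast cell carboxypeptidase, had 14.6 in GATA-1 V205M, 5.0 in GATA-1 2RA, 0.630 in GATA-1 WT and 2795 in the G1E control, and Srgn, the granule proteoglycan serglycin, had 4.15 in GATA-1 V205M, 1077 in GATA-1 2RA, 215 in GATA-1 WT and 69.6 in the G1E control. Mast cell markers thus ran both ways. The part of such cells in the members' levels was not tested. Cd44, an adhesion receptor, had 873 in GATA-1 V205M, 321 in GATA-1 2RA, 174 in GATA-1 WT and 289.9 in the G1E control.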

How the data were processed

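RNA-seq of 4 labelled samples, 1 per group, was taken up from the 6 tables of listed genes that the authors deposited, 1 for each pair of groups. The submitters' processing notes name the mm10 build and the tools deepTools, TopHat, Cuffdiff and Cufflinks, with no version or role. No source used here says which tool made these tables. As the deposited values show, the signal is the mean of a group's read counts after division by size factors. The deposited fold ratio, its log2 value and the adjusted p-value are the authors'. Whole reads were recovered for 100% of the levels, and the size factors were 1.163 and 0.9983 in the columns of GATA-1 V205M, 1.4 for GATA-1 2RA, 1.588 for GATA-1 WT, and 1.167 and 0.3574 for those of the G1E control. The recovered reads in listed genes numbered 1147539 and 977544 in the columns of GATA-1 V205M, 1218762 in GATA-1 2RA, 2178397 in GATA-1 WT, and 1015015 and 276064 in those of the G1E control. The lowest count was 1 in every column, and no source used here says whether 1 was added to each count. If it was, a count of 1 stands for no read. A ratio to 1 read and its counting interval therefore hold for the deposited counts only.

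Among the tested genes, the authors kept those changed by over 2-fold whose adjusted p was below 0.01. No source used here states the number tested. The 12931 was inferred from the p-values and adjusted p-values of the pairs given with unrounded values, and was applied to all 6 pairs. The authors entered each count column separately, so these p-values may measure the spread between runs of 1 sample. A pseudocount of 1 scaled read was added before log2 changes were taken, and ratios are those of the deposited levels. Counting intervals (95%, exact binomial on the pooled reads of each group) cover counting error only. In a group with 2 columns the interval pools the reads while the ratio uses the mean of the columns, so they can disagree. For Stard9 over the control the ratio was 4.77 and the interval 4.78 to 14.3. An edgeR 4.0.16 quasi-likelihood fit (R 4.3.3) on the recovered reads of the 1157 genes with 4 levels served as an alternative. It takes its spread from the columns of GATA-1 V205M and the G1E control, assumes that the lone columns vary alike, and compares these libraries and not the conditions. Tables were handled with Python 3.11.15, pandas 2.3.3, numpy 2.4.6, SciPy 1.17.1 and matplotlib 3.10.9, and copies were aligned with blastn 2.17.0 to GENCODE transcripts. Coordinates are on GRCm38, the build that mm10 names, and all 66 genes were matched to RefSeq, 9 of them under another symbol.

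The genes, the gene lists and the roles were chosen with earlier results of these data known. Genes named by rule were Ednra, Ddc, Mboat2 and Gja6; the 20 with the largest gap to the next highest group; those on a list; the 4 on either side of the limit; the 4 largest and 4 smallest changes of GATA-1 WT and of GATA-1 2RA against the control; and Gata1. All others named were picked after their values were seen. No p-value was computed over the 66.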

Additional observations from a re-analysis of the deposited data

How the results depend on the processing

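No paired analysis was possible because each group is 1 sample. With a ratio of 3 in place of 2, 28 genes remained. Under the other settings of the choice the number lay between 54 (a minimum of 100 scaled reads) and 95 (a ratio of 1.5). In another setting each group was scaled to the same summed level over the 1157 genes with 4 levels. Each of these genes was listed by the authors in some pair, so this is not a scaling to library size. The scaling shifted log2 levels by 0.06 in GATA-1 V205M, 0.05 in GATA-1 2RA, -0.37 in GATA-1 WT and 0.36 in the G1E control. It gave 65 genes, 55 of them among the 66. Leaving out 1 count column of GATA-1 V205M gave 60 or 67 genes, and leaving out 1 of the G1E control 62 or 69. The median log2 change of GATA-1 2RA against the control was -0.002554. It became 0.03682 with a minimum of 100, 0.02244 without the first count column of the control and -0.2796 with equal summed levels. Its sign is therefore not settled. For GATA-1 WT against the control the median of -0.12 became 0.02716 with a minimum of 100 and -0.5134 with equal summed levels. The median log2 ratio of GATA-1 V205M over GATA-1 2RA was 2.22, and 1.694 with a minimum of 100. That minimum removes genes with few 2RA reads, such as Cmah with 1, and others with more, such as Far2 with 59. The cause of these shifts was not tested. The remaining 54 values kept their direction and stayed within the limits set for them. Counts had to stay within 1.5-fold and the GATAA share within its 95% interval. For medians the limit came from the width of the counting interval of the member nearest the median. Under it the median of GATA-1 2RA against GATA-1 WT, 0.03461, passed at 0.2632 with equal summed levels. In edgeR's quasi-likelihood fit on recovered reads (Benjamini-Hochberg adjusted over 12931 genes), GATA-1 V205M was called higher for 66 members against GATA-1 2RA, 66 against GATA-1 WT and 65 against the control, calls that the choice of genes on the same reads fixes and that say nothing of stability. Of the members it called 9 higher and 8 lower in GATA-1 2RA against GATA-1 WT (327 and 371 of all 1157 genes fitted), 5 and 10 in GATA-1 2RA against the control (442 and 232), and 8 and 13 in GATA-1 WT against the control (562 and 331). Depth limits what can be said of the 13 genes with 3 reads or fewer in a group, and of the control, whose smaller column had 276064 reads in listed genes.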
